A study of Mus musculus with 9 samples.

Results

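Immediate early genes were followed in the mouse heart through birth, by the levels of 10 genes: *Fos*, *Fosb*, *Jun*, *Junb*, *Egr1*, *Ier2*, *Atf3*, *Dusp1*, *Klf6* and *Nr4a1*. They were chosen by symbol, and all 10 were found among the 48820 genes of the RNA-seq table. The 9 hearts came from untreated wild-type C57BL/6J mice, 3 at embryonic day 18.5 (E18.5d), 3 at postnatal day 1 (P1d) and 3 at postnatal day 7 (P7d), all labelled male and numbered as biological replicates 1 to 3 of their stage. Levels are FPKM, fragments per kilobase of transcript and per 1e6 mapped fragments. The whole heart was used, so fewer cells of a type and less RNA per cell cannot be told apart.

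Immediate early genes are transcribed within minutes of a stimulus such as a growth factor, stretch, calcium or stress, from factors already present in the cell and without new protein synthesis. Serum response factor with its ETS and MRTF partners, and CREB, which MAP kinases and other kinases act on, are the best known of these factors. Many of the transcripts decay quickly, and many of the proteins are transcription factors that set a second wave of transcription. In heart muscle these genes are known as early markers of mechanical load and of adrenergic or ischaemic stress.

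Some hearts did not match their labels or stood apart. *Xist*, the RNA of the inactive X chromosome in female cells, was at 82.6 and 97.0 FPKM in E18.5d replicates 1 and 3 and at 58.0 and 70.0 FPKM in P7d replicates 2 and 3, and in these 4 hearts *Eif2s3y*, *Ddx3y*, *Uty* and *Kdm5d* of the Y chromosome were listed at 0. The other 5 hearts, which include all 3 of P1d, had at most 0.11 FPKM of *Xist*. Summed airway and lung markers were at 90.9, 251 and 492 FPKM in E18.5d replicates 1 and 2 and in P1d replicate 1, against at most 3.13 in the other 6 hearts. The defining lung factor *Nkx2-1* was low, at 0.08, 0.09 and 0.14 FPKM in those 3 hearts in the same order, and was listed at 0 in the other 6. The defining cardiomyocyte gene *Tnnt2* was between 2778 and 4994 FPKM in every heart. From the steps between low FPKM values, the depth in units of 1e6 fragments was about 25.25 to 46, so that 1 fragment on a kilobase was worth 0.0217 to 0.0396 FPKM. An immediate early gene then rested on about 43 to 127 fragments for *Fosb* and on 118 or more for each of the others.

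The promoters of the 4 genes with the largest rise on the first postnatal day, among those in the RefSeq promoter table, are shown because they can be read beside the values that follow. Each is the 250 bases before the RefSeq start in GRCm38.p6, read 5′ to 3′ on the strand of the gene. Capitals mark matches to the short CRE (TGACG, or CGTCA where it lies on the other strand), the full CRE (TGACGTCA, which holds short CREs), the EGR motif (GCGGGGGCG or GCGTGGGCG, either strand) and the TATA motif (TATAAA).
Atf3 (chr1:191183334-191183583): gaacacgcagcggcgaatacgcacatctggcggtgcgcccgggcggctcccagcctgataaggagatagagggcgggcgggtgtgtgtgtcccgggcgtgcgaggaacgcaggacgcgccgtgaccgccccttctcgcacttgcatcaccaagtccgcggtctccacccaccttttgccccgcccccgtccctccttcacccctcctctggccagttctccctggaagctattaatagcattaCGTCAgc
Nr4a1 (chr15:101266596-101266845): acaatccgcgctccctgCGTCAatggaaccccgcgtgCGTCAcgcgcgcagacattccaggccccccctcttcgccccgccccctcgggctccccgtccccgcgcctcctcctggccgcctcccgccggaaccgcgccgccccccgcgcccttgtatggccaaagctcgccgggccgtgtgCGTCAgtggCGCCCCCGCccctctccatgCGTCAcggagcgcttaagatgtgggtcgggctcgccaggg
Fos (chr12:85473640-85473889): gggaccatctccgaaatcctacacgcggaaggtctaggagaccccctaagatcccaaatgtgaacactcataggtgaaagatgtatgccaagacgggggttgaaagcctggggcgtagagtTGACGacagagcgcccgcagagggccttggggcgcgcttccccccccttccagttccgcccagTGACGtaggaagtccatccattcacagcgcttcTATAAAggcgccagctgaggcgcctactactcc
Dusp1 (chr17:26508473-26508722): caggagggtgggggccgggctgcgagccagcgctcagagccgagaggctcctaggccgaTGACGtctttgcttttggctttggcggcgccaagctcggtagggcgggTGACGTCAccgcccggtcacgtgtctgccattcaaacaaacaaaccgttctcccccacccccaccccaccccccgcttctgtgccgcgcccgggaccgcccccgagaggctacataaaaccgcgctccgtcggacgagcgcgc

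The CRE is the site at which CREB and ATF factors bind, and the EGR motif is that of the Egr1 zinc fingers. Of the 10 genes, 8 were searched on both strands, and *Ier2* and *Egr1* were not searched. The first listed RefSeq start of each gene was used. For *Atf3*, *Nr4a1* and *Dusp1* this start lies kilobases inside the gene as annotated, and bases before any other start were not searched. The short CRE was found in 6 of the 8 (*Fos*, *Fosb*, *Junb*, *Atf3*, *Dusp1* and *Nr4a1*), against 17.9% of 32536 promoters of the same length. *Nr4a1* held 4 of them and *Dusp1* held 3, of which 2 lie on opposite strands of its full CRE. The full CRE was in *Dusp1* of the 8 and in 1.56% of all promoters. The EGR motif was in *Fosb* and *Nr4a1* and in 3.09% of all promoters, and the TATA motif was in *Fos* and in 12.3%. The AP-1 motif (TGACTCA or TGAGTCA), the CArG box bound by serum response factor and the NBRE (AAAGGTCA) bound by Nr4a1 matched 0 of the 8 in this window, with 4.45%, 1.48% and 1.35% of all promoters. Bases further from the start were not searched, so sites there would be missed. *Jun* and *Klf6* held none of these motifs in this window. A match describes letters only and is not a binding site.

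**Figure D1:**
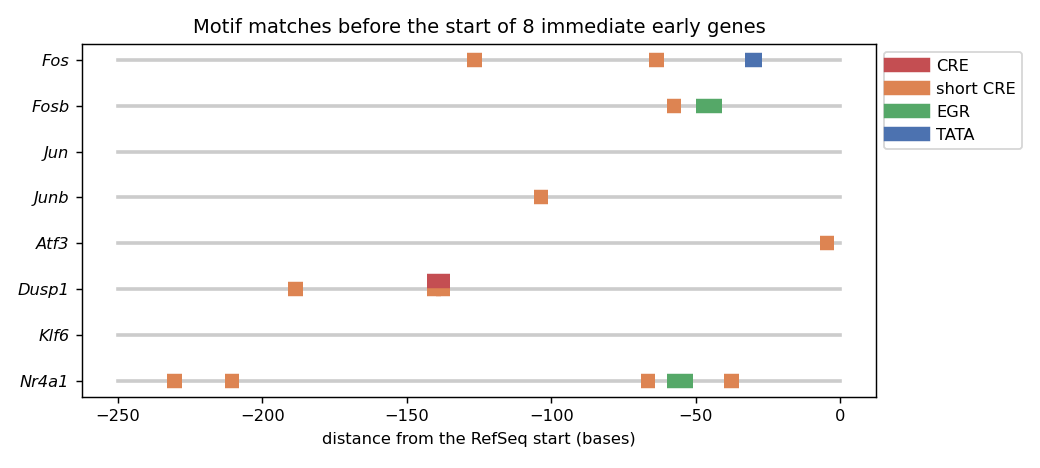
Position of motif matches in the 250 bases before the RefSeq start of 8 immediate early genes, with the distance from the start in bases on the x axis and 1 gene per line. The short CRE (orange) appears in 6 of the 8 genes and the full CRE (red, drawn raised) in *Dusp1*, while *Jun* and *Klf6* have no match.

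Between E18.5d and P1d, 8 of the 9 genes tested rose and 0 fell, also at an unadjusted p under 0.05. *Fosb*, with a mean below 1 FPKM, was not tested. Of all 13618 genes tested, 18.4% were called higher and 27.6% lower at P1d (limma on log2(FPKM + 1), adjusted p under 0.05 by Benjamini-Hochberg). The median log2 change of the 9 was 0.74, beside -0.06 over all genes tested. Between P1d and P7d the group split, with 2 genes higher (*Dusp1* and *Egr1*) and 3 lower (*Atf3*, *Nr4a1* and *Klf6*), against 15.5% and 28.6% of all genes. The balance of all genes in that comparison turned with the scaling, from 2112 higher and 3901 lower to 3195 and 2469 by median of ratios, where 3 of the 9 were higher and 3 lower. Compared with E18.5d, 6 of the 9 were higher and 1 was lower at P7d, against 12.5% and 36.9% of all genes. The comparisons share the hearts of a stage, so their values are not independent of each other.

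**Figure D2:**
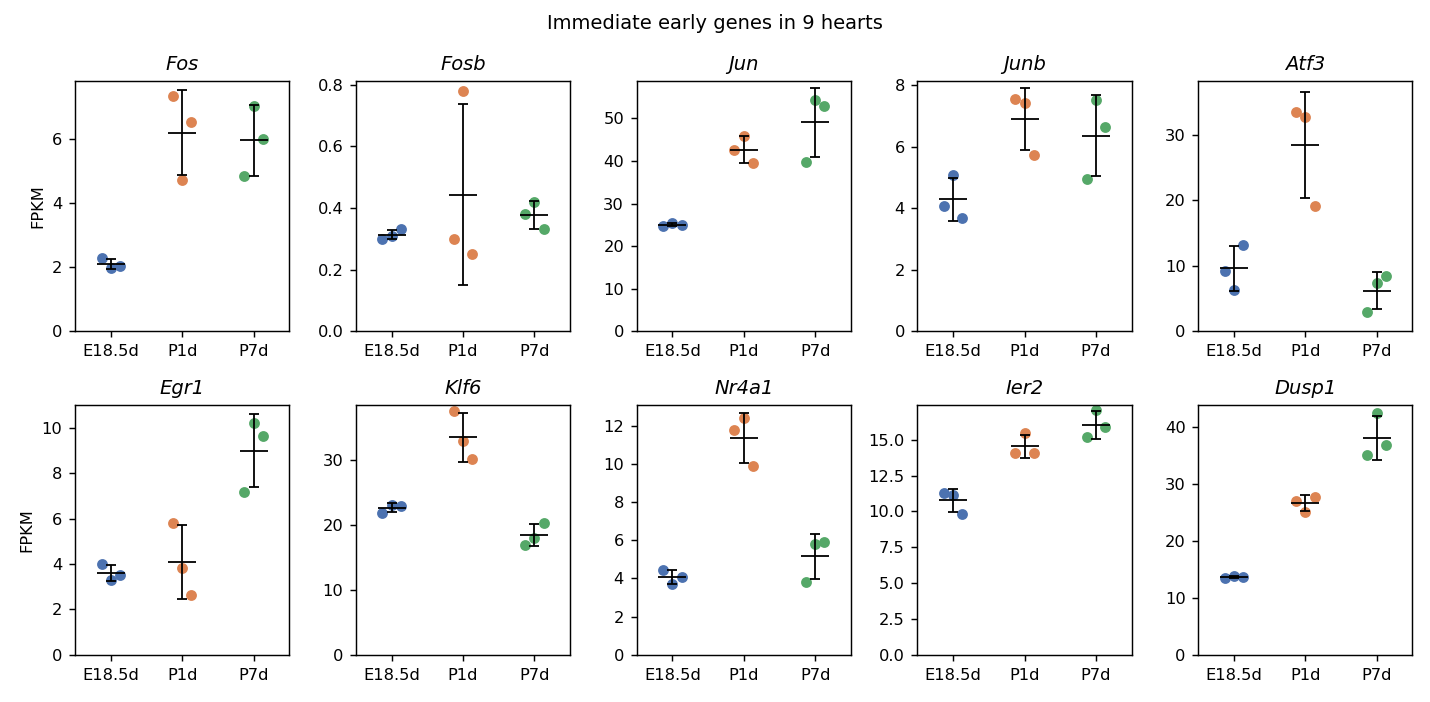
FPKM of the 10 immediate early genes in each heart (points, replicates 1 to 3 from left to right within a stage), with the mean and SD of the 3 hearts in black and a y axis that starts at 0 in each panel. *Atf3*, *Klf6* and *Nr4a1* have their highest mean at P1d, *Dusp1* and *Egr1* at P7d, and *Fos* is at a mean of 2.10 at E18.5d and near 6 at P1d and P7d.

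The count of 8 at P1d depended on the hearts used and on the scaling. With the columns rescaled to an equal sum, *Ier2* (0.24, adjusted p = 0.053) and *Klf6* (0.37, adjusted p = 0.0502) missed the threshold and 6 were called. Of all 13647 genes tested there, 1173 were called higher and 4706 lower, against 2505 and 3755 of 13618 in the main fit. With the 4 hearts that held *Xist* left out, which leaves 1 heart at E18.5d and 1 at P7d, 4 were called (*Jun*, *Atf3*, *Dusp1* and *Nr4a1*), against 1.76% of all genes higher and 4.29% lower, and 7 had an unadjusted limma p under 0.05. Of the 4 calls lost there, *Fos* had a log2 change of 1.25 (adjusted p = 0.0541), *Klf6* 0.51, *Junb* 0.37 and *Ier2* 0.35. With a term for *Xist* in the fit of all 9 hearts, 8 were called. With the 3 hearts that held airway genes left out, which leaves 1 heart at E18.5d and 2 at P1d, 4 were called (*Fos*, *Dusp1*, *Ier2* and *Nr4a1*), against 7.48% of all genes higher and 10.7% lower, and 7 had an unadjusted p under 0.05. A lone heart is then assumed to vary as the hearts of the other stages do.

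The later comparisons were also fitted in these smaller sets. Without the *Xist* hearts 0 were higher (1 at an unadjusted p under 0.05) and 2 lower at P7d against P1d, where 0.551% and 0.764% of all genes were called by limma. At P7d against E18.5d 1 was higher and 0 were lower (4 and 0 at an unadjusted p under 0.05), against 0.683% and 0.742%. Without the hearts with airway genes 2 were higher and 3 lower at P7d against P1d, against 10.3% and 18.9% of all genes. At P7d against E18.5d 5 were then higher and 0 lower (6 and 1 at an unadjusted p under 0.05), against 7.27% and 16.6%.

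The Fos and Jun families form AP-1, a dimer of leucine zipper proteins, and *Fos* encodes the subunit that cannot pair with itself. *Fos* (chr12:85473890-85477273) was at 2.28, 1.98 and 2.03 FPKM in the 3 hearts of E18.5d. At P1d it was at 7.34, 4.73 and 6.52, and at P7d at 4.84, 7.03 and 6.00. Each postnatal heart was above every foetal heart, and the 2 postnatal stages overlapped. The mean was 2.96 times as high at P1d as at E18.5d, with a log2 change of 1.20 ± 0.15 (SE, n = 3 hearts a stage, limma adjusted p = 0.000244). Between P7d and P1d the log2 difference was -0.04, with a 95% interval from -0.39 to 0.30 (adjusted p = 0.839), and its sign changed when P1d replicate 1 (0.07) or P7d replicate 1 (0.08) was left out. Against E18.5d, the log2 change of *Fos* at P7d was 1.16 ± 0.15 (adjusted p = 0.00028). With the *Xist* hearts left out, which leaves 1 heart at E18.5d and 1 at P7d, that change was 0.971.

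*Jun* (chr4:95049034-95052222), which encodes a subunit that pairs with Fos or with itself, had the highest level of the 10 genes at every stage, per length. It was at 24.7, 25.4 and 25.0 FPKM at E18.5d, at 42.6, 45.9 and 39.4 at P1d and at 39.7, 54.4 and 53.0 at P7d. The foetal hearts lay within 1 FPKM of each other and all below the postnatal ones. The log2 change of *Jun* was 0.74 ± 0.11 from E18.5d to P1d (adjusted p = 0.000595). Between P1d and P7d it was 0.19 ± 0.11 (adjusted p = 0.199). Without P7d replicate 1 that difference was 0.33 and passed the threshold (adjusted p = 0.00924), as it did with protein-coding nuclear genes scaled to an equal sum (0.34, adjusted p = 0.0312), and with the *Xist* hearts left out, where P7d replicate 1 alone stands for P7d, it was -0.10. The exons of *Jun* share 232 of 3189 bases with *Junos* on the other strand, and the library kit named in the labels does not mark strand, so reads of the 2 genes cannot be told apart there.

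*Junb* (chr8:84974484-84978718) encodes a Jun family subunit that can restrain Jun. Its levels were 4.08, 5.07 and 3.69 FPKM at E18.5d, 7.55, 7.41 and 5.72 at P1d, and 4.93, 7.52 and 6.62 at P7d. All P1d hearts exceeded all foetal hearts, while P7d replicate 1 fell below E18.5d replicate 2. The log2 change to P1d was 0.58 ± 0.16 (adjusted p = 0.0132), and it missed the threshold without E18.5d replicate 3 (0.50, adjusted p = 0.0513). At P7d against E18.5d it was 0.47 ± 0.16 (adjusted p = 0.0305). That call was lost when any 1 of 4 hearts was left out, namely E18.5d replicate 1 (0.45, adjusted p = 0.0799), E18.5d replicate 3 (0.39, 0.103), P7d replicate 2 (0.36, 0.115) or P7d replicate 3 (0.44, 0.085). Of its exon bases, 173 of 2301 are shared with *Prdx2* on the other strand.

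*Fosb* (chr7:19302696-19310051), a close relative of *Fos*, was the lowest of the 10 genes at every stage. It lay between 0.25 and 0.42 FPKM in 8 hearts and at 0.78 in P1d replicate 2. The stages overlapped in every comparison, and without the filter on low values the adjusted p was 0.549 for P1d against E18.5d, 0.753 for P7d against E18.5d and 0.84 for P7d against P1d.

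*Atf3* (chr1:191170296-191218039), a stress-induced leucine zipper factor of the ATF family, had the largest changes of the 9 genes tested in the P1d comparisons. It was at 9.22, 6.31 and 13.2 FPKM at E18.5d. At P1d it reached 33.5, 32.7 and 19.1 FPKM, and at P7d it was at 2.95, 7.29 and 8.40. All P1d hearts were above all others, and the E18.5d and P7d hearts overlapped. The log2 change was 1.49 ± 0.36 from E18.5d to P1d (adjusted p = 0.00775) and -2.08 ± 0.36 from P1d to P7d (adjusted p = 0.0015). Without the 3 hearts with airway genes the first was 0.87 and missed the threshold (adjusted p = 0.302), while the second was -1.95 (adjusted p = 0.0194). At P7d against E18.5d the log2 difference was -0.60, with a 95% interval from -1.40 to 0.21 (adjusted p = 0.191). *Atf3* also varied most among hearts of a stage, with a residual SD of 0.54 on the log2 scale that exceeded those of 98% of all genes tested.

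*Nr4a1* (chr15:101254269-101274795), an orphan nuclear receptor, followed the same shape of a peak at P1d with a smaller spread. Its levels were 4.44, 3.71 and 4.10 FPKM at E18.5d, 11.8, 12.4 and 9.90 at P1d, and 3.81, 5.79 and 5.91 at P7d. The P1d hearts stood clear of the other 6. The log2 change was 1.28 ± 0.14 to P1d (adjusted p = 0.000121), and -1.02 ± 0.14 from P1d to P7d (adjusted p = 0.000525). The difference between P7d and E18.5d was 0.26, with a 95% interval from -0.06 to 0.59 (adjusted p = 0.155), and it passed the threshold without P7d replicate 1 (0.43, adjusted p = 0.0137) and with the columns rescaled by median of ratios (0.44, adjusted p = 0.0409), by quantiles (0.42, 0.0472) or to protein-coding nuclear genes (0.40, 0.0454).

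*Klf6* (chr13:5861482-5870394) encodes a zinc finger factor of the Krüppel-like family. The 3 hearts of E18.5d had 21.9, 23.2 and 23.0 FPKM, those of P1d 37.5, 32.9 and 30.2, and those of P7d 17.01, 18.02 and 20.3. None of the 3 stages overlapped another. The log2 change was 0.54 ± 0.09 to P1d (adjusted p = 0.00109) and -0.83 ± 0.09 from P1d to P7d (adjusted p = 0.000131). At P7d *Klf6* was below its foetal level by a log2 change of -0.29 ± 0.09 (adjusted p = 0.024). That last call did not hold without E18.5d replicate 2 (-0.27, adjusted p = 0.0717), E18.5d replicate 3 (-0.28, 0.0631), P7d replicate 1 (-0.23, 0.086) or P7d replicate 2 (-0.27, 0.0703), nor under any other scaling of the columns, where the adjusted p was between 0.0783 and 0.463.

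*Dusp1* (chr17:26505590-26562128), a nuclear phosphatase that switches off MAP kinases, was the only gene called higher in both intervals in the main fit. It was at 13.6, 13.9 and 13.8 FPKM at E18.5d, at 27.1, 25.1 and 27.7 at P1d and at 35.0, 42.5 and 36.8 at P7d. The 3 stages did not overlap. The log2 change was 0.90 ± 0.08 to P1d (adjusted p = 2.41e-05) and a further 0.50 ± 0.08 from P1d to P7d (adjusted p = 0.000809). Over the whole period it was 1.40 ± 0.08 (adjusted p = 1.44e-06), the largest of the 9 on the scale of log2(FPKM + 1), while the ratio of mean FPKM was 2.77 for *Dusp1* and 2.84 for *Fos*. With the *Xist* hearts left out, which leaves 1 heart at P7d, the step of *Dusp1* from P1d to P7d was 0.385.

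*Ier2* (chr8:84661331-84662852), a small nuclear protein of the early response, moved least of the 8 genes that rose. Its levels were 11.3, 11.2 and 9.81 FPKM at E18.5d, 14.1, 15.4 and 14.1 at P1d, and 15.2, 17.1 and 15.9 at P7d. Foetal hearts lay below all postnatal hearts, and P1d and P7d overlapped. The log2 change was 0.40 ± 0.08 to P1d (adjusted p = 0.00216) and 0.54 ± 0.08 to P7d, both against E18.5d (adjusted p = 0.000407 for the second). The step from P1d to P7d was 0.13 ± 0.08 (adjusted p = 0.184). That step passed the threshold by median of ratios (0.26, adjusted p = 0.0265), by quantiles (0.24, 0.0253) and with protein-coding nuclear genes scaled to an equal sum (0.28, 0.00936), and the call at P1d was lost with all columns at an equal sum.

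*Egr1*, a zinc finger factor and a standard marker of MAP kinase and serum response factor activity, was the 1 tested gene that was not called at P1d. It was at 3.99, 3.31 and 3.50 FPKM at E18.5d and at 5.82, 3.84 and 2.62 at P1d, so that the P1d hearts lay on both sides of the foetal ones. At P7d it was at 7.17, 10.2 and 9.62 FPKM, above all 6 other hearts. The log2 difference between P1d and E18.5d was 0.10, with a 95% interval from -0.37 to 0.57 (adjusted p = 0.717), and without P1d replicate 1 it was -0.13. *Egr1* then rose from P1d to P7d, with a log2 change of 1.01 ± 0.21 (adjusted p = 0.00399), and the change from E18.5d to P7d was 1.11 ± 0.21 (adjusted p = 0.00199). With the *Xist* hearts left out these were 0.73 (adjusted p = 0.275) and 0.92 (adjusted p = 0.273).

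**Figure D3:**
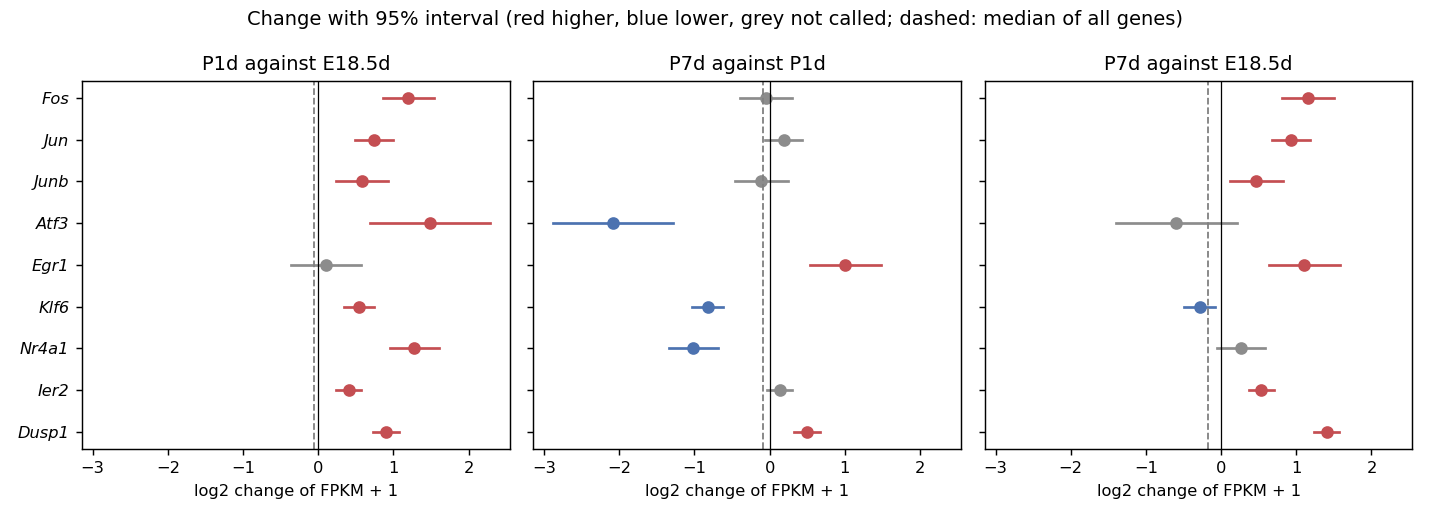
Log2 change of FPKM + 1 of the 9 immediate early genes tested, with the 95% interval, in the 3 comparisons; the dashed line is the median of all 13618 genes. At P1d against E18.5d 8 of the 9 genes lie to the right and are called, and at P7d against P1d they spread from -2.08 for *Atf3* to 1.01 for *Egr1*.

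The order of the levels was led by *Jun* at every stage, per length, and closed by *Fosb*. *Klf6* was the second highest at E18.5d and P1d, and *Dusp1* took that place at P7d. *Atf3* moved from the fifth place at E18.5d to the third at P1d and the seventh at P7d, and *Egr1* from the eighth to the ninth and then the fifth. At E18.5d the ranges of *Ier2* and *Atf3* overlapped, as did those of *Junb*, *Nr4a1* and *Egr1*. At P1d *Atf3* (19.1 to 33.5 FPKM) overlapped both *Klf6* (30.2 to 37.5) and *Dusp1* (25.1 to 27.7), and *Fos* overlapped both *Junb* and *Egr1*. At P7d *Jun* overlapped *Dusp1* and *Klf6* overlapped *Ier2*. *Atf3*, *Fos*, *Junb* and *Nr4a1* all overlapped each other there, and *Egr1* overlapped *Atf3* and *Junb*.

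Heart by heart, the 10 genes were summarised by the mean of log2(FPKM + 1) minus the mean of each gene over the 9 hearts. The foetal hearts were close together, at -0.39, -0.45 and -0.40. The P1d hearts were at 0.44, 0.37 and 0.15, and the P7d hearts at -0.16, 0.24 and 0.19. P7d replicate 1 had the lowest level of its stage in 9 of the 10 genes, and P1d replicate 3 in 8 of the 10. With the columns rescaled to an equal sum these numbers were 8 and 5, and by median of ratios 9 and 7. P7d replicate 1 is the 1 heart of its stage without *Xist*, so the 2 differences cannot be told apart there. At E18.5d, replicate 2, which lacked *Xist*, had the lowest mean of its stage (-0.45), also by median of ratios (-0.55). It and replicate 1, which held *Xist*, each had the lowest level of the stage in 4 of the 10 genes. The 3 hearts of P1d, at 0.15 to 0.44, all lacked *Xist*. The part of *Xist* status in this mean was not tested.

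Around the stage means, the residual SD on the log2 scale had a median of 0.20 over the 9 genes tested, beside 0.12 over all genes tested. It was highest for *Atf3* (0.54) and *Egr1* (0.31) and lowest for *Ier2* (0.09), with *Dusp1* also at 0.09. Within stages, the deviations of *Nr4a1* had a Pearson r of 0.93 with the mean deviation of the other 9 genes, *Jun* 0.88, *Egr1* 0.78 and *Atf3* 0.76, while *Fosb* had 0.12 and *Dusp1* 0.36. These describe 9 hearts and the points of a heart share its library and scale.

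**Figure D4:**
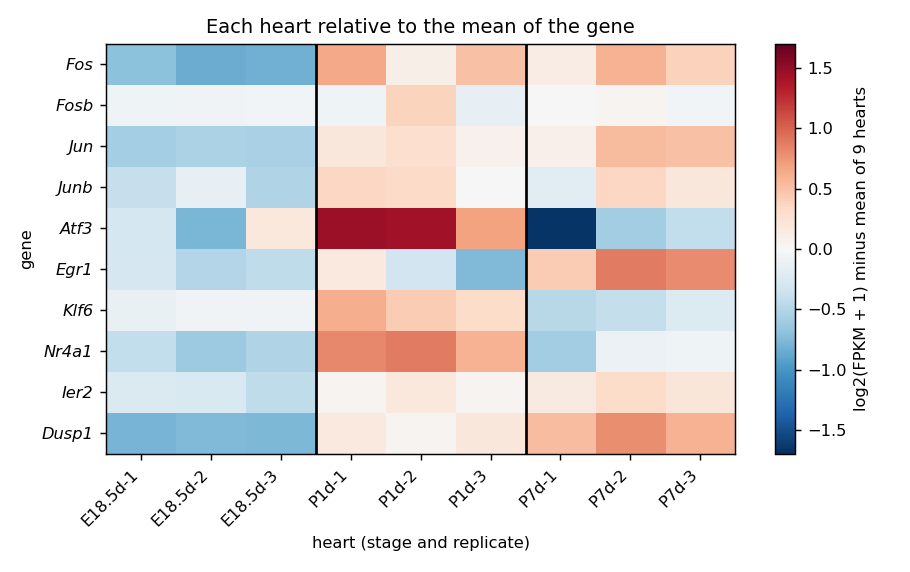
Log2(FPKM + 1) of each gene in each heart minus the mean of the gene over the 9 hearts (red above, blue below), with hearts in columns ordered by stage. The 3 E18.5d columns are below the mean for each gene except *Atf3* in replicate 3, *Atf3* stands out in red in P1d replicates 1 and 2, and P7d replicate 1 has the lowest value of its stage in 9 of the 10 genes.

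Outside the 10 genes, the pattern of the heart-by-heart mean was most like that of *Ubr4*, *Btg2*, *Cul9*, *Dmd* and *Tom1* among the 9122 genes whose mean reached 5 FPKM, with Pearson r of 0.97, 0.97, 0.96, 0.96 and 0.96 over the 9 hearts. *Btg2*, itself an early response gene and an antiproliferative factor, was at 10.8 to 12.6 FPKM at E18.5d, 21.2 to 29.9 at P1d and 15.1 to 19.9 at P7d. By deviations from the stage means, the nearest genes were *Lin37*, *Shroom3*, *Hectd4*, *Parl* and *Cavin2*, with r from 0.92 to 0.96.

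Of 48 other early response genes, 41 were tested, of which 19 rose and 6 fell between E18.5d and P1d, beside 18.4% and 27.6% of all genes. Their median log2 change was 0.23, beside -0.06 over all genes tested. From P1d to P7d 8 rose and 22 fell, beside 15.5% and 28.6% of all genes, with a median of -0.26 beside -0.09. At P7d against E18.5d 9 were higher and 11 lower, beside 12.5% and 36.9% of all genes, with a median of -0.05 beside -0.17. That last balance turned to 13 higher and 6 lower by median of ratios, by quantile normalization and with protein-coding nuclear genes scaled to an equal sum. The balance of all genes moved as well, from 1706 higher and 5025 lower of 13618 to 3161 and 2534 of 13581 by median of ratios. For all genes it was 2898 and 2912 of 13608 by quantiles, and 2755 and 2864 of 13615 with protein-coding nuclear genes. In the smaller sets of hearts fewer of all genes were called as well, at the shares given above for these sets. With the *Xist* hearts left out, 6 rose and 3 fell between E18.5d and P1d, and 0 rose and 2 fell from P1d to P7d. Without the hearts with airway genes these were 11 and 2, and 5 and 14.

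*Per1*, a clock gene that is also induced rapidly by glucocorticoids and cAMP, rose most at P1d. It was at 16.5, 18.6 and 17.0 FPKM at E18.5d, at 86.2, 104 and 72.7 at P1d and at 8.54, 8.95 and 6.65 at P7d, with log2 changes of 2.26 (adjusted p = 3.78e-06) and then -3.29 (adjusted p = 2.11e-06). *Ccn2*, a secreted matrix protein and target of YAP and of serum response factor, was at 65.3 to 76.1 FPKM at E18.5d, 181 to 338 at P1d and 48.7 to 87.2 at P7d, with log2 changes of 1.8 and then -1.85. *Klf10*, a TGF-beta inducible zinc finger factor, rose by 1.58 to P1d, and *Csrnp1*, a nuclear factor, fell by 1.87 from P1d to P7d, both on the log2 scale. All 3 P1d hearts were above the other 6 for *Per1* and *Ccn2*.

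The genes that fell at P1d were led by *Phlda1* (-1.17), *Spry4* (-0.91) and *Ier3* (-0.77), of which *Spry4* encodes an inhibitor of receptor tyrosine kinase signalling. *Spry4* went from 6.78 to 7.50 FPKM at E18.5d to 3.17 to 3.66 at P1d and back to 6.24 to 7.30 at P7d. Between P1d and P7d it led the rises (0.84), before *Dusp5* (0.74), a nuclear phosphatase of ERK, and *Phlda1* (0.63). Over the whole period the largest rises were in *Klf4* (0.72), *Rhob* (0.71) and *Klf10* (0.65), and the largest falls in *Maff* (-1.26), *Gadd45b* (-1.16) and *Myc* (-1.16), all log2 changes. *Myc* was at 8.25 to 9.33 FPKM at E18.5d, 8.76 to 13.8 at P1d and 3.02 to 3.83 at P7d. Without P7d replicate 1, the genes of the list called lower at P7d against E18.5d numbered 7 in place of 11.

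**Figure D5:**
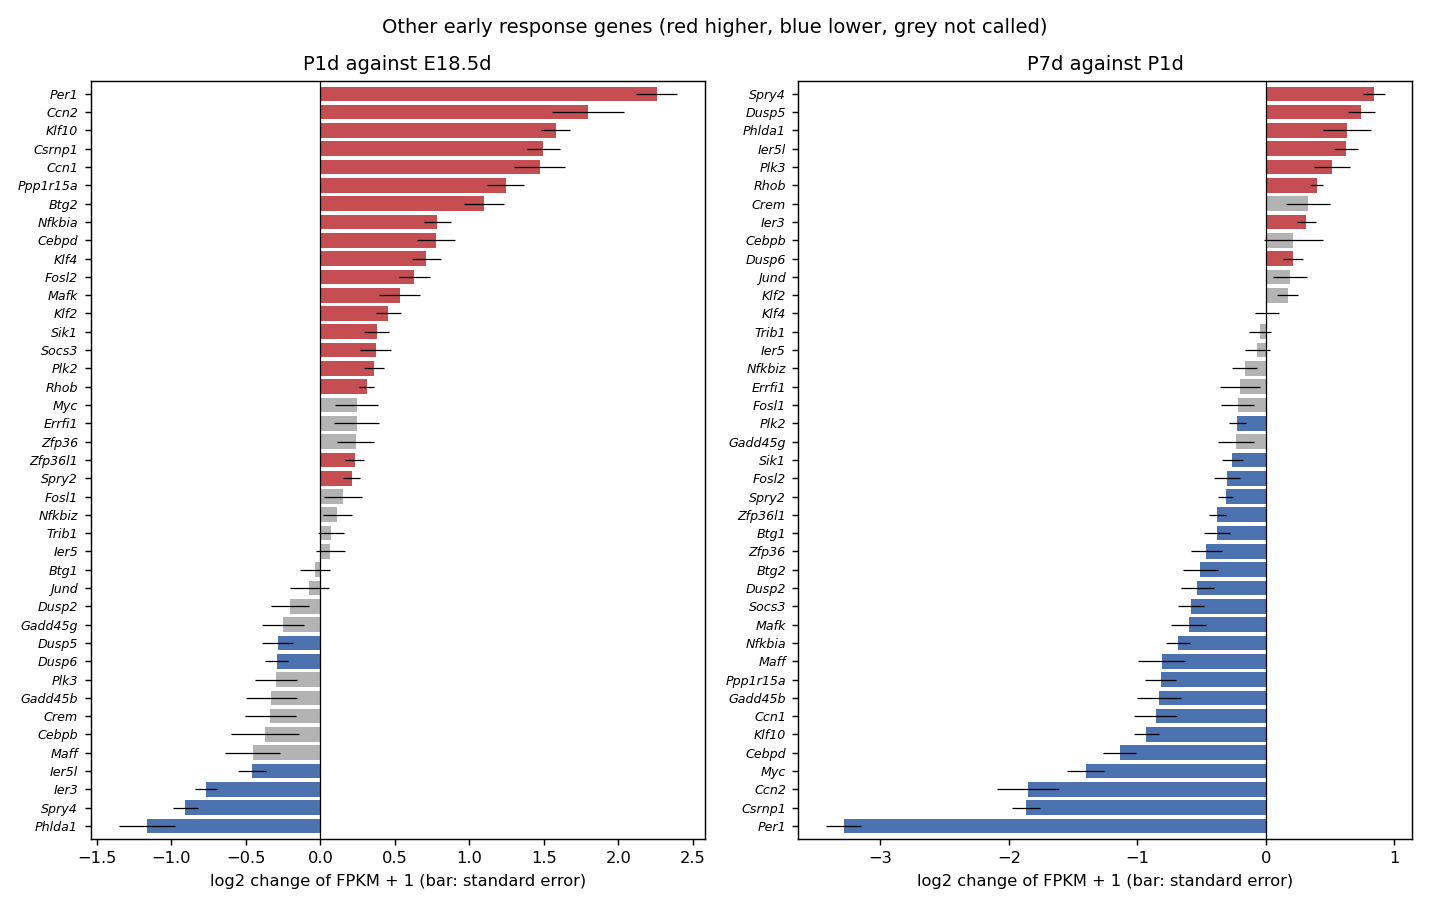
Log2 change of FPKM + 1 with its standard error for the 41 other early response genes tested, sorted within each panel, at P1d against E18.5d and at P7d against P1d; the panels share the P1d hearts. *Per1* is at the top on the left with 2.26 and at the bottom on the right with -3.29.

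The factors and kinases that act on these promoters were read as a list of 23. Of these 22 were tested, and between E18.5d and P1d 2 rose, among them *Mapk8*, the kinase JNK1 (0.34), and 2 fell (*Creb1* -0.82 and *Map2k1*, the kinase MEK1, -0.56), on the log2 scale, beside the 18.4% of all genes higher and 27.6% lower. Their median log2 change was -0.05, beside -0.06 over all genes. *Creb1* was at 20.9 to 21.8 FPKM at E18.5d, 10.8 to 12.1 at P1d and 14.8 to 15.7 at P7d, so its stages did not overlap. *Srf* was at 19.1 to 26.9 FPKM over P1d, around its foetal 23.5 to 24.8, with a log2 difference of -0.06 (adjusted p = 0.721). Between P1d and P7d 2 of the 22 rose (*Creb1* 0.37 and *Map2k2* 0.15) and 5 fell, among them *Jdp2* (-0.57) and *Atf2* (-0.33). Of all genes 15.5% rose and 28.6% fell in that comparison. At P7d against E18.5d 0 were higher (0 at an unadjusted limma p under 0.05) and 6 lower, beside 12.5% and 36.9% of all genes, led by *Batf* (-0.50), *Map2k1* (-0.47) and *Creb1* (-0.46).

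Stress chaperones, which fold damaged proteins and can respond to handling of tissue as well as to heat, were counted beside them. Of the 12, 0 rose (1 at an unadjusted limma p under 0.05) and 8 fell between E18.5d and P1d, beside 18.4% and 27.6% of all genes, with a median log2 change of -0.44 beside -0.06. The falls were led by *Hsph1* (-1.59), *Hsp90aa1* (-0.83) and *Hspe1* (-0.72) on the log2 scale. *Hsph1* was at 13.2 to 17.7 FPKM at E18.5d, 4.14 to 5.22 at P1d and 5.38 to 8.33 at P7d. At P7d against P1d 2 were higher (*Hspb8* 0.84 and *Bag3* 0.21) and 3 lower (*Hspb1* -0.86, *Hspe1* -0.58 and *Dnajb1* -0.33), beside 15.5% and 28.6% of all genes. Over the whole period, beside 12.5% of all genes higher and 36.9% lower, 2 were higher (*Hspb8* 0.64 and *Bag3* 0.37) and 8 lower, led by *Hspe1* (-1.30), *Hsph1* (-1.21) and *Hsp90aa1* (-1.04).

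Markers of blood cells also moved at P1d. The sum of 6 neutrophil genes was 5.85 to 11.5 FPKM at E18.5d, 46.9 to 69.7 at P1d and 15.3 to 19.4 at P7d, with 4 of the 4 tested higher at P1d than at E18.5d, although the defining gene *Ly6g* was at or near 0. The sum of 6 macrophage genes was 42.4 to 55.5, 66.6 to 93.0 and 62.9 to 70.2 FPKM in the same order, with 5 of 6 higher at P1d. The 6 lymphocyte genes summed to at most 1.3 FPKM in every heart. Cardiomyocyte markers were higher at P1d for 5 of 8, endothelial for 2 of 6, red cell for 1 of 6 and fibroblast for 0 of 6, beside 18.4% of all genes. Of the fibroblast markers 3 of 6 were lower, beside 27.6%. The part of these cells in the levels of the immediate early genes was not tested.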

How the data were processed

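RNA from 9 mouse hearts was sequenced. The authors deposited FPKM values of 48820 genes, with a column per heart, from total RNA and a library kit that does not mark strand. The submitters' processing notes name STAR, GRCm38 and mm10, and the counting tool is not given in the sources used here. Identifiers were matched without version to GENCODE M21 of GRCm38 (48058 matched). Values were transformed to log2(FPKM + 1), which understates changes of low genes. Those whose mean reached 1 FPKM (13618) entered limma 3.58.1 (R 4.3.3, eBayes with trend), all 9 hearts in 1 fit of the 3 stages without covariates. P-values were adjusted by Benjamini-Hochberg over all genes, with a threshold of 0.05. The fit was tested on simulated data. The labels call the hearts biological replicates.

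Depth was read from the steps of low values (90.9% to 93.9% of those used were whole within 0.15 of a fragment). FPKM are not counts, so no count test was run and the depth is approximate. Motifs were searched in RefSeq promoters (GRCm38.p6).

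The 10 genes and all lists were chosen with earlier results of these data known. All 10 are named. Of the other early response genes, the upstream factors and the stress chaperones, the 3 largest log2 changes in each direction among called genes are named, apart from 1 gene that is not reported here. *Srf* was named after its values were seen. Genes of like pattern were the 5 with the highest Pearson r. Alternatives were other pseudocounts, filters and scalings, an *Xist* covariate, a replicate block and leaving out hearts. Rescaling to protein-coding nuclear genes and leaving out the hearts with airway genes were chosen after seeing the data. Figures were drawn with matplotlib 3.10.9 in Python 3.11.15 (pandas 2.3.3, numpy 2.4.6).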

Additional observations from a re-analysis of the deposited data

How the results depend on the processing

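The log2 changes of the 9 genes were recomputed under each alternative, apart from *Fos* at a mean of at least 5 FPKM, which it did not reach. Of 591 such values, 532 kept their direction and side of the threshold, 34 kept the direction but lost the call, 9 gained a call and 16 changed sign. All sign changes were in differences that were not called, except *Junb* at P7d against E18.5d with the *Xist* hearts left out (-0.0337). *Fos* at P7d against P1d became 0.0633 (equal sum), 0.0717 (median of ratios), 0.0147 (quantile normalization), 0.0872 (protein-coding nuclear equal sum) and 0.0716 (without hearts with airway genes), with -0.199 to 0.0766 when 1 heart was left out. *Junb* in the same comparison became 0.00344 (equal sum), 0.00726 (median of ratios) and 0.0242 (protein-coding nuclear equal sum), with -0.223 to 0.0382 when 1 heart was left out. *Jun* there was -0.10 with the *Xist* hearts left out. *Egr1* at P1d against E18.5d became -0.0328 (equal sum) and -0.10 (without hearts with airway genes), with -0.13 to 0.32 when 1 heart was left out.

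With the *Xist* hearts left out, the immediate early genes higher were 4 at P1d against E18.5d, 0 at P7d against P1d and 1 at P7d against E18.5d, with 0 lower in the last. Without the hearts with airway genes 4 were higher at P1d against E18.5d and 0 lower at P7d against E18.5d. Rescaling to protein-coding nuclear genes gave 4 higher at P7d against P1d. Of all genes 3296 of 13615 were called higher there, against 2112 of 13618 in the main fit. The 1 gene lower at P7d against E18.5d, *Klf6*, became 0 under equal sum, median of ratios, quantile normalization and protein-coding nuclear equal sum, and 0 to 1 when 1 heart was left out. Fewer hearts were fitted in each alternative that left hearts out, and the cause of the other differences was not tested.

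Of the other early response genes, equal sum gave 12 higher at P1d against E18.5d and 13 lower at P7d against P1d. Of all 13647 genes tested there, equal sum gave 1173 and 1727 in the same order, against 2505 and 3901 of 13618 in the main fit. A mean of at least 5 FPKM, which tests fewer genes, gave 3 lower at P1d against E18.5d and 4 higher at P7d against P1d, and the *Xist* covariate gave 4 for the latter. With the *Xist* hearts left out the counts of higher and lower were 6 and 3, then 0 and 2, and 0 and 0 at P7d against E18.5d. Without the hearts with airway genes they were 11 and 2, 5 and 14, and 4 and 5. Median of ratios, quantile normalization and protein-coding nuclear equal sum gave 13 higher and 6 lower at P7d against E18.5d, and leaving out 1 heart gave 7 to 11. The counts of all genes under these scalings are given above.

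Replicate numbers were not used to pair the hearts in the main fit. Residuals of same-numbered hearts had correlations of -0.05 to 0.11, and the best match in another stage had the same number in 8 of 18 cases. Whether hearts of the same number shared a batch was not tested. With the replicate block, 8 immediate early genes were higher at P1d against E18.5d and no count moved by over 1.5 times. Scaling moved the median of all genes by up to 0.18 on the log2 scale (median of ratios, P7d against E18.5d), and the share of higher among all called genes in that comparison from 25.3% to 55.5%. At P7d against P1d that share went from 35.1% to 59.6% with protein-coding nuclear equal sum, and at P1d against E18.5d from 40% to 20% with equal sum and 51.6% by median of ratios. The median of the immediate early genes minus that of all genes stayed between 0.77 and 0.81 at P1d against E18.5d under these scalings. Depth limits *Fosb* most.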
